A study of Mus musculus with 12 samples.

Results

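Mouse genes named Zfp followed by a number mostly encode proteins with Cys2-His2 (C2H2) zinc fingers. The deposited table of splenic follicular (FO) B cells listed 326 protein-coding Zfp genes with a plain numeric symbol, and 173 of them reached a sum of at least 120 counts over the 12 samples. These 173 genes, called members below, were selected on their measured total count from a table of 22561 genes. The other 153 Zfp genes stayed under the threshold, and 13 of those had no count in any sample. Just inside the threshold were Zfp953 with 127 counts, Zfp846 with 126 and Zfp760 with 121. Just outside it were Zfp606 with 118, Zfp27 with 114 and Zfp956 with 112.

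FO B cells (B220hi, AA4.1-, CD23+ and intermediate for CD21) were sorted from the spleens of C57BL6 mice aged 10 weeks. They were left unstimulated or stimulated for 12 h with IFNα, a type I interferon, with CpG, an oligonucleotide ligand of the endosomal DNA sensor TLR9, or with both agents. Each of the 4 groups held 3 samples, and RNA was read by BRB-seq, a bulk method that barcodes the 3′ ends of transcripts and counts unique molecular identifiers (UMIs). All samples carry the label C57BL6, and no transgene or deletion is named for any group. Whether the unstimulated cells spent the same time in culture is not given in the sources used here, so in comparisons with them the stimulus and the culture cannot be told apart. The comparisons of CpG plus IFNα with IFNα and with CpG set groups of equal culture time side by side.

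C2H2 zinc finger proteins bind DNA, and in some cases RNA or protein, through arrays of short zinc-stabilised loops. Many of them carry a KRAB domain at the amino terminus, which recruits the corepressor TRIM28 (KAP1) and with it the H3K9 methyltransferase SETDB1, and these KRAB proteins are best known for silencing retroviral and other repeated elements. KRAB zinc finger genes arose by repeated duplication and lie in clusters on a few chromosomes. Other Zfp symbols belong to proteins with different functions: Zfp36 encodes tristetraprolin, a CCCH-type protein that binds AU-rich elements and drives decay of cytokine and immediate early mRNAs, and Zfp318 encodes a nuclear protein that FO B cells need to make IgD.

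The annotated proteins of the members divided into 56 with a KRAB A-box pattern and at least 1 C2H2 pattern, 112 with C2H2 patterns and no KRAB pattern, and 5 with neither, Zfp36 and Zfp703 among them. The median number of C2H2 patterns was 12 in the KRAB proteins and 8 in the 112 others, with a maximum of 33. The KRAB pattern is strict, and a wider one found 70 members, so its absence does not show that the domain is absent. Chromosome 7 held 40 of the 173 members, chromosome 17 held 22 and chromosome 13 held 14.

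Library totals ranged from 922450 to 2923865 counts, and the median member had 348 counts over the 12 samples. All 173 members passed the filter on low counts that left 9431 genes for testing. Follicular markers (3 of 3 detected) gave 4413 to 5057 CPM (counts scaled to library totals of 1e6) in unstimulated samples, 3057 to 3624 with IFNα and 848 to 1105 in samples with CpG, so the labelled cell type was found. Of these, Fcer2a (1109 to 1454 CPM unstimulated, 196 to 303 with IFNα) and Cr2 (353 to 467, then 57.2 to 98.9) were already low with IFNα, while Ighd, the bulk of the sum, was low in the samples with CpG. The marginal zone list gave 498 to 641, 2238 to 2391 and 95.5 to 337 CPM in the same order. Its rise with IFNα lay in the interferon-induced gene Plac8 (276 to 421, then 2149 to 2268), whereas Dtx1, Cd1d1 and S1pr3 were lower with IFNα than without. The plasma cell list gave 255 to 380.4 CPM unstimulated, 181 to 210 with IFNα, 186 to 205 with CpG and 200 to 271 with both. The plasmacytoid dendritic cell list gave 442 to 499 CPM in unstimulated samples, 262 to 306 with IFNα and 51.8 to 97.9 with CpG, nearly all of it from Bcl11a, which B cells also express, with Siglech at 0, and the NK cell list reached 1.23 CPM at most. The T cell list stayed at or under 3.64 CPM with Cd3g and Cd8a at 0 in every sample. The myeloid list summed to between 5.30 and 24.6 CPM in the unstimulated samples, between 6.69 and 12.97 with IFNα, all of it Adgre1, and to at most 2.995 with CpG, and the erythroid list ran from 57.4 to 345 CPM unstimulated, 15.3 to 336 with IFNα and 4.99 to 72.0 with CpG. Their part in the results was not tested. In these bulk samples, fewer cells of a type and less RNA per cell cannot be told apart. Hbb-bs, a hemoglobin gene, was highest in replicate 1 and lowest in replicate 3 of each of the 4 groups. The sample labels do not say whether replicates came from separate mice, and a deposited barcode list numbers the libraries of each group WT1 to WT3 without saying what the numbers are. The p-values therefore measure the spread between these samples, which may be technical.

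As a group, the members took 0.666, 0.611 and 0.659% of all counts in the unstimulated samples, 0.564, 0.589 and 0.586% with IFNα, 0.486, 0.5004 and 0.495% with CpG, and 0.477, 0.501 and 0.491% with CpG plus IFNα. The group means were 0.645% ± 0.030, 0.579% ± 0.014, 0.494% ± 0.007 and 0.490% ± 0.012 (SD, n = 3), and each of the unstimulated samples lay above each of the 6 samples with CpG. Zfp36 and Zfp318, described below, were the 2 members whose CPM dropped most between unstimulated and CpG samples. Zfp36 averaged 772 CPM unstimulated, 253.5 with IFNα and 12.2 with CpG, and Zfp318 averaged 373, 272 and 50.3. The lower shares with IFNα and with CpG therefore rest largely on these 2 genes. Ribosomal RNA and mitochondrial genes took 7.73% of counts in the unstimulated group, 8.94% with IFNα, 5.32% with CpG and 4.78% with both; without them the shares were 0.699, 0.637, 0.522 and 0.514%.

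Members were called changed at an adjusted p under 0.1 in edgeR's quasi-likelihood test with Benjamini-Hochberg adjustment over all 9431 genes, together with a log2 fold change beyond 1 in either direction. With IFNα alone, 11 members rose and 3 fell against unstimulated cells, where 4.56% of all genes tested rose and 4.07% fell. With CpG alone 11 rose and 26 fell, against a background of 20.1% higher and 25.5% lower. With CpG plus IFNα 11 rose and 34 fell, against 20.3% and 25.6% of all genes. These comparisons share the unstimulated samples. Counted out of 173, the members called higher with CpG were a smaller share than that of all genes, and the same held for the members called lower. Among the 8219 protein-coding genes with at least the same total of 120 counts, CpG raised 20.8% and lowered 22.3%.

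Set against IFNα alone, CpG plus IFNα raised 7 members and lowered 43, with a background of 18.7% higher and 25.5% lower. Set against CpG alone, CpG plus IFNα raised and lowered 0 members, with a background of 2.95% higher and 2.01% lower. In that comparison 21 members had an unadjusted p under 0.05, 6 of them higher and 15 lower, and DESeq2 also called 0. At an adjusted p under 0.1 without the fold limit, 2 members were higher and 9 lower, so the 0 rests on that limit, and counts drawn down to equal depth gave 4 lower calls. The count of 0 lower became 1 without CpG replicate 2, CpG replicate 3 or CpG plus IFNα replicate 1, and 2 without CpG plus IFNα replicate 3. The median 95% half-width of a member's log2 fold change there was 0.48. The difference between the IFNα effect with CpG and the IFNα effect without it was called for 1 member in the positive direction and 6 in the negative direction, where 3.09% and 3.17% of all genes were called.

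The median log2 fold change of the members was 0.09 with IFNα (all genes tested: -0.001), -0.19 with CpG (all genes: -0.03) and -0.22 with both (all genes: -0.01). It was -0.40 for CpG plus IFNα against IFNα (all genes: -0.07), with 120 of 173 members below 0, and -0.04 for CpG plus IFNα against CpG (all genes: -0.04). With library sizes alone the members' median with IFNα was 0.01 (all genes: -0.083). With a filter at 10 counts the members' medians with CpG and with both were -0.087 and -0.066. Of the 173 members, 115 were called in none of the 3 comparisons with unstimulated cells, 20 were lower with CpG and with CpG plus IFNα and not called with IFNα alone, 9 were higher in those same 2 conditions only, and 9 were higher with IFNα only. These patterns were not counted over all genes, so they have no background and are a description only. The count of 11 higher with IFNα fell to 6 without unstimulated replicate 2 and to 7 without IFNα replicate 3, and was 6 with library sizes alone and 7 with DESeq2. The count of 3 lower was 5 without IFNα replicate 1, and the count of 7 higher against IFNα rose to 11 without IFNα replicate 1.

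**Figure D1:**
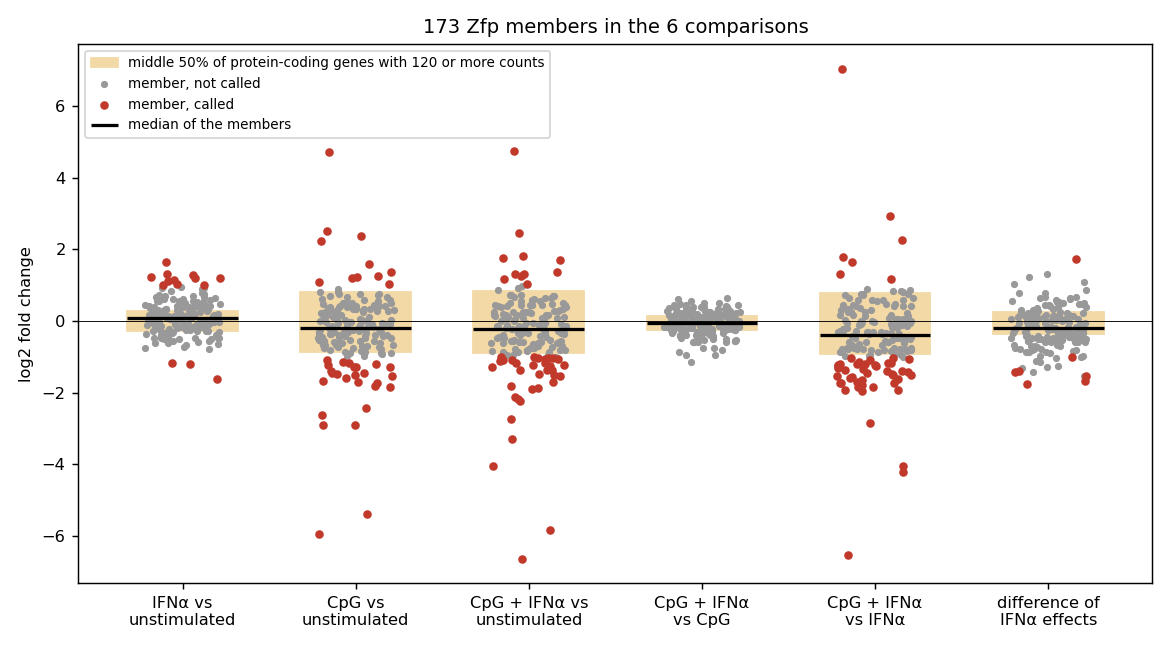
Log2 fold change (y axis) of the members in each of the 6 comparisons (x axis), 1 point per member, with called members in red, the members' median as a black line and the middle 50% of 8219 protein-coding genes with 120 or more counts as a shaded box. Values whose groups were both at or under 3 counts in each sample are not drawn; the medians lie between -0.40 and 0.09, and no point is red for CpG plus IFNα against CpG.

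Among the members whose proteins act on RNA, Zfp36 changed most. Zfp36 (chr7:28376784-28380253, minus strand, GRCm38; all gene positions below are of the same build, from GENCODE M21) measured 733, 727 and 857 CPM in the unstimulated samples, 261, 248 and 251 with IFNα, 9.21, 11.4 and 15.97 with CpG and 12, 13.8 and 14.4 with both. The 3 IFNα samples lay well below the unstimulated ones and all 6 samples with CpG lay far below both, with no overlap between the groups on either side of IFNα. The log2 fold change was -1.61 ± 0.11 (SE) with IFNα (adjusted p = 1.53e-13), -5.95 ± 0.16 with CpG (adjusted p = 1.12e-24) and -5.83 ± 0.15 with both (adjusted p = 4.21e-25). In cells that received CpG, IFNα made no called difference, at 0.11 ± 0.24 (adjusted p = 0.853), and the difference between the IFNα effects was 1.72 ± 0.26 (adjusted p = 2.24e-05).

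Other members of the RNA group moved less. Zfp598, the ubiquitin ligase that marks collided ribosomes, measured 50.05, 42.8 and 62.7 CPM in the unstimulated samples, 30.3, 34.7 and 37.4 with IFNα, 101, 79.1 and 93.4 with CpG and 82.9, 80.04 and 94.05 with both. Its IFNα samples were the lowest and its samples with CpG the highest, without overlap, and CpG plus IFNα differed from IFNα alone by 1.31 ± 0.16 (adjusted p = 8.8e-09). Zfp593, a nucleolar factor of the large ribosomal subunit, measured 13.7, 8.56 and 5.29 CPM in the unstimulated samples, 7.06, 7.30 and 8.39 with IFNα, 17.2, 23.5 and 18.97 with CpG and 24.5, 22.4 and 25.2 with both. Each sample with CpG exceeded each sample without it, with 1.101 ± 0.30 (adjusted p = 0.00173) for CpG, a call lost without unstimulated replicate 3 (0.78), and 1.64 ± 0.28 (adjusted p = 4.14e-06) for CpG plus IFNα against IFNα. Zfp207, which binds microtubules and spliceosome components, measured 215, 172 and 229 CPM in unstimulated samples and 317, 293 and 287 with CpG, a log2 fold change of 0.54 ± 0.12 (adjusted p = 0.000144), short of the fold limit. Zfp106, an RNA-binding protein, gave 0.75 ± 0.12 (adjusted p = 1.58e-06) with CpG and -0.31 ± 0.11 (adjusted p = 0.058) for IFNα on top of CpG, also short of that limit. Zfp622, Zfp326, Zfp638, Zfp346 and Zfp830, which have roles in ribosome maturation, splicing or binding of structured RNA, were called in no comparison, with log2 fold changes with CpG between -0.45 for Zfp346 and 0.29 for Zfp830.

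Zfp36 belongs to a wider set of mRNA decay factors, of which 28 genes (CCCH proteins, the CCR4-NOT deadenylase and its partners, Zfp36 included) were tested. Of these, 5 were lower and 0 higher with IFNα, 7 lower and 3 higher with CpG, and 8 lower and 4 higher for CpG plus IFNα against IFNα, with medians of -0.12, -0.16 and -0.19. The shares of all genes called lower in these comparisons were 4.07%, 25.5% and 25.5%, and higher 4.56%, 20.1% and 18.7%, so the counts lower with CpG and against IFNα are near the background. Btg1, an antiproliferative adaptor of that deadenylase, fell with either agent, at -1.28 ± 0.11 (adjusted p = 1.76e-11) with IFNα and -4.08 ± 0.13 (adjusted p = 3.56e-23) with CpG. The relatives Zfp36l1 and Zfp36l2 fell with CpG, at -3.32 ± 0.14 (adjusted p = 6.96e-20) and -3.42 ± 0.29 (adjusted p = 3.71e-12). With IFNα, Zfp36l2 was also called lower, at -1.49 ± 0.245 (adjusted p = 1.83e-05). Zfp36l1 gave -0.67 ± 0.12 (adjusted p = 4.56e-05) there, short of the fold limit.

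**Figure D2:**
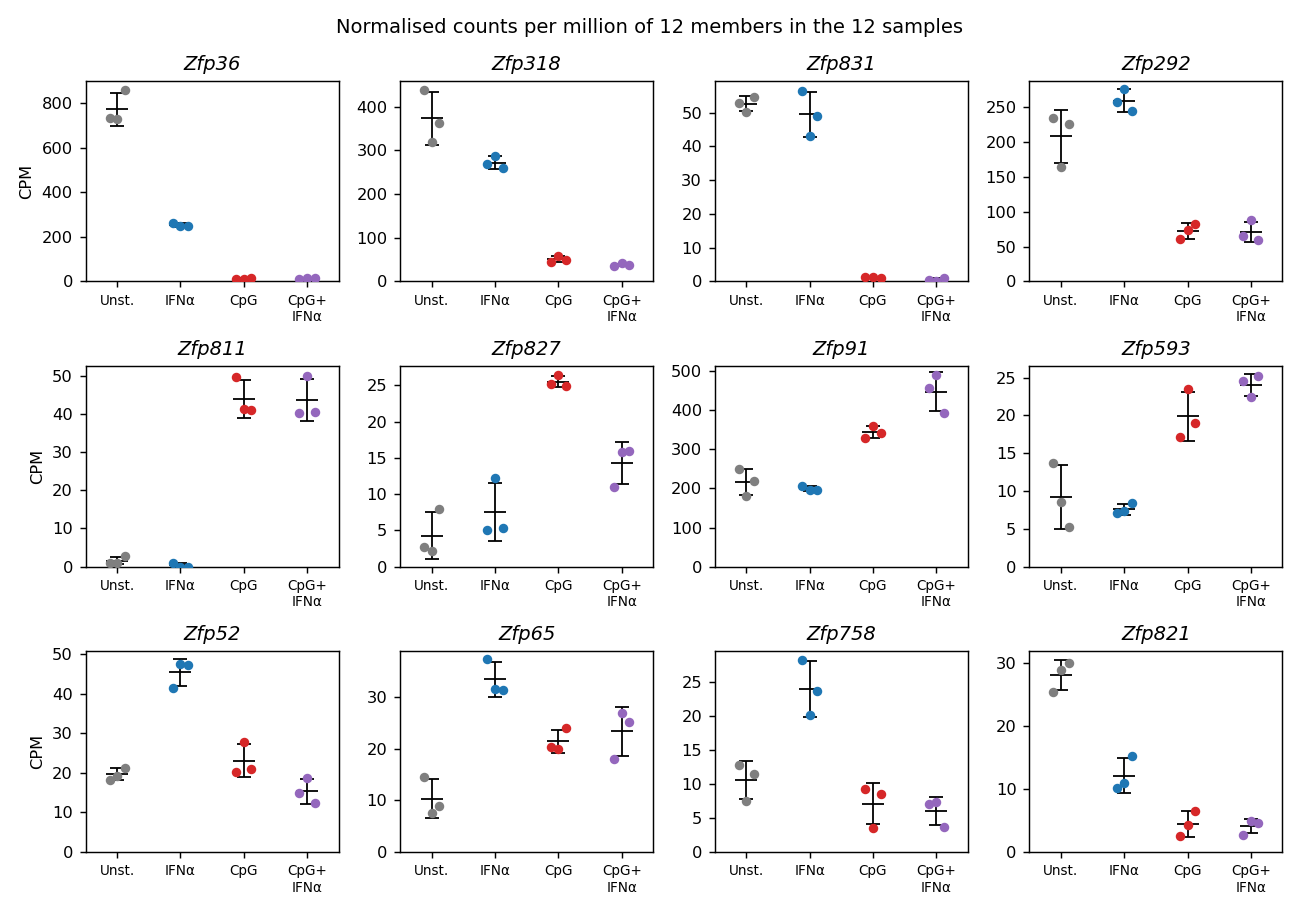
Normalised CPM (y axis, starting at 0, scale set per panel) of 12 members in the 4 groups (x axis), with 1 point per sample and the mean ± SD of 3 samples in black. Zfp36, Zfp318, Zfp831 and Zfp292 sit low in all samples with CpG, Zfp811, Zfp827, Zfp91 and Zfp593 sit high there, and Zfp52, Zfp65 and Zfp758 peak in the IFNα samples.

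Zfp318 (chr17:46383731-46420920, plus strand) controls the choice of IgD over IgM transcripts in naive B cells. It measured 439, 319 and 362 CPM in the unstimulated samples, 268, 288 and 260.2 with IFNα, 44.2, 57.7 and 48.9 with CpG and 35.5, 41.4 and 37 with both. Samples with CpG and without CpG did not overlap, and the lowest value without CpG was several times the highest with it. The log2 fold change was -2.90 ± 0.14 (adjusted p = 1.43e-18) with CpG, -3.29 ± 0.14 (adjusted p = 3.65e-20) with both agents and -2.83 ± 0.14 (adjusted p = 2.09e-18) for CpG plus IFNα against IFNα. With IFNα alone it was -0.46 ± 0.12 (adjusted p = 0.00464), past the p threshold and short of the fold threshold. Ighd, the IgD heavy chain gene, measured between 2803 and 3251 CPM in the 6 samples without CpG and between 819 and 1052 in the 6 with it.

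Zfp91 (chr19:12763660-12796126), an E3 ubiquitin ligase of the noncanonical NF-κB pathway and the member with most counts (6229), went the other way. It measured 250.2, 182 and 218 CPM in the unstimulated samples, 207, 196 and 195 with IFNα, 329.7, 360.0 and 342 with CpG and 458, 491 and 393 with both. The samples with both agents were the highest group, without overlap with CpG alone. The log2 fold change was 0.66 ± 0.12 (adjusted p = 1.27e-05) with CpG, 1.04 ± 0.12 (adjusted p = 2.15e-09) with both and 1.17 ± 0.12 (adjusted p = 1.5e-10) for CpG plus IFNα against IFNα, and IFNα on top of CpG gave 0.38 ± 0.11 (adjusted p = 0.0207). The call for both agents against unstimulated was lost without unstimulated replicate 2 (0.96) and without CpG plus IFNα replicate 2 (0.99). The other members with the highest totals were Zfp207 (5119 counts), Zfp706 (4679), Zfp36 (3605) and Zfp318 (2779); such totals give the depth behind each gene and do not rank genes by expression.

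Zfp831 (chr2:174643534-174710832) was near 0 in every sample with CpG. It measured 52.8, 50.3 and 54.7 CPM in the unstimulated samples, 56.5, 43.2 and 48.8 with IFNα, 1.23, 1.43 and 0.998 with CpG and 0.545, 0 and 1.03 with both, which corresponds to 167 counts over the unstimulated group, 191 with IFNα, 6 with CpG and 3 with both. Every sample with CpG held at most 2 counts. The unstimulated level was 44.8 times the CpG level (95% exact counting interval 20.1 to 124) and the IFNα level was 104 times the level with both agents (35 to 509). The gene passed the threshold on total count through the samples without CpG.

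Among regulators of transcription outside the KRAB class, Zfp292, Zfp608 and Zfp703 were lower with CpG, whereas most of the others were not called. Zfp292 (chr4:34803113-34882960), a large protein with 14 C2H2 patterns, measured 235, 165 and 226 CPM in the unstimulated samples, 257, 277 and 245 with IFNα, 60.8, 74.1 and 82.4 with CpG and 65.5, 87.97 and 59.6 with both. The samples with CpG lay below all others, at -1.52 ± 0.15 (adjusted p = 1.1e-10) with CpG and -1.85 ± 0.14 (adjusted p = 2.25e-13) for CpG plus IFNα against IFNα. Zfp608 measured 106, 79.2 and 80.3 CPM in the unstimulated samples, 71.6, 54.7 and 48.1 with IFNα, 36.2, 27.8 and 42.9 with CpG and 21.3, 16.9 and 19.02 with both. Its 4 groups did not overlap, its IFNα samples were below the unstimulated ones and its samples with both agents below those with CpG alone. It gave -0.63 ± 0.17 (adjusted p = 0.00769) for IFNα, -1.29 ± 0.18 (adjusted p = 1.08e-07) for CpG, -2.23 ± 0.19 (adjusted p = 2.32e-12) for both and -0.94 ± 0.20 (adjusted p = 0.00113) for IFNα on top of CpG, the last just short of the fold limit. Zfp703, a corepressor, had -1.38 ± 0.41 (adjusted p = 0.00369) with CpG and -1.74 ± 0.44 (adjusted p = 0.000699) for CpG plus IFNα against IFNα. The total count of Zfp703 was among the lowest of the members, and it was higher in the samples without CpG. Its selection therefore favoured a lower level with CpG. Zfp148, Zfp281, Zfp143, Zfp384, Zfp131, Zfp410, Zfp24 and Zfp609 were called in no comparison, and their log2 fold changes with CpG ran from -0.55 for Zfp384 to 0.42 for Zfp131. Zfp24 had its largest value with IFNα, at 0.76 ± 0.20 (adjusted p = 0.00575). Zfp335, on the same list of regulators, was not among the members.

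Other members lower with CpG were not on the list of known roles. Zfp740 measured 94.6, 102 and 92.7 CPM in the unstimulated samples, 103, 120.4 and 91.6 with IFNα, 33.8, 32.8 and 38.4 with CpG and 28.4, 39.7 and 30.8 with both and gave -1.65 ± 0.15 (adjusted p = 1.35e-11) for CpG plus IFNα against IFNα. Zfp950, a KRAB member, measured 81.9, 64.2 and 72.4 CPM in the unstimulated samples, 70.6, 81.5 and 63.3 with IFNα, 23.3, 24.9 and 24.96 with CpG and 25.1, 27.6 and 26.2 with both and gave -1.58 ± 0.17 (adjusted p = 8.75e-10) with CpG. In both genes the 6 samples with CpG lay below the 6 without it, and neither was called for IFNα in either setting. Zfp821 (chr8:109705546-109724932) fell with either agent. It measured 25.5, 28.9 and 30 CPM in the unstimulated samples, 10.1, 10.9 and 15.3 with IFNα, 2.46, 4.28 and 6.49 with CpG and 2.73, 4.83 and 4.63 with both, with -1.20 ± 0.29 (adjusted p = 0.00243) for IFNα, -2.61 ± 0.33 (adjusted p = 2.13e-08) for CpG and -1.53 ± 0.36 (adjusted p = 0.000317) for CpG on top of IFNα. Its IFNα samples lay between the unstimulated samples and those with CpG, without overlap. Zfp846 was the other member lower with IFNα, at -1.17 ± 0.40 (adjusted p = 0.0388), from 126 counts in all, and its call was lost without unstimulated replicate 2 (-0.82) or IFNα replicate 3 (-1). Zfp36, Zfp821 and Zfp846 were the 3 members called lower in all 3 comparisons with unstimulated cells. Zfp821 and Zfp846 would be under 120 counts without the unstimulated samples, where they are high.

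Of the members that rose with CpG, Zfp811 stood apart. Zfp811 (chr17:32795676-32809931, minus strand), a KRAB member with 13 C2H2 patterns, measured 0.910, 1.07 and 2.65 CPM in the unstimulated samples, 1.01, 0 and 0 with IFNα, 49.7, 41.3 and 40.9 with CpG and 40.4, 50.02 and 40.6 with both. That is 5 counts over the unstimulated group and 1 over the IFNα group, against 221 with CpG and 298 with both, so the gene passed the threshold on total count through the samples with CpG. The CpG level was 27.5 times the unstimulated level (95% exact counting interval 11.6 to 85.5), and the level with both agents was 182 times that with IFNα (32.5 to 7230). The neighbouring members within the same cluster on chromosome 17 did not share this pattern: Zfp871, Zfp870, Zfp472 and Zfp952 gave -0.16, -0.71, 0.12 and -1.29 with CpG, and the last was called lower.

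After Zfp811, the members with the smallest p among those raised by CpG without overlap of replicates were Zfp827, Zfp296, Zfp930 and Zfp599. Zfp827 (chr8:79028437-79193766) measured 2.73, 2.14 and 7.94 CPM in the unstimulated samples, 5.04, 12.2 and 5.34 with IFNα, 25.2, 26.4 and 24.96 with CpG and 10.9, 15.9 and 15.9 with both. It was highest with CpG alone, lower when IFNα was added, and lowest without CpG, giving 2.51 ± 0.38 (adjusted p = 5.87e-07) with CpG, 1.69 ± 0.40 (adjusted p = 0.000408) with both and -0.82 ± 0.25 (adjusted p = 0.0305) between CpG plus IFNα and CpG. Zfp599 measured 0.910, 3.21 and 4.41 CPM in the unstimulated samples, 4.04, 1.82 and 0.763 with IFNα, 14.1, 14.97 and 12.5 with CpG and 12, 10.7 and 7.71 with both and gave 2.24 ± 0.46 (adjusted p = 6.81e-05) with CpG. Zfp930 gave 1.38 ± 0.28 (adjusted p = 4.67e-05). For Zfp599 the samples with and without CpG did not overlap. For Zfp827 they overlapped only in IFNα replicate 2, which exceeded CpG plus IFNα replicate 1.

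Zfp296 measured 17.3, 27.8 and 22.9 CPM in the unstimulated samples, 54.5, 31.01 and 49.6 with IFNα, 48.5, 46.3 and 57.9 with CpG and 65.5, 47.3 and 58.1 with both, so that the groups with CpG were high and the IFNα group overlapped them. It gave 1.19 ± 0.23 (adjusted p = 2.25e-05) with CpG and 0.96 ± 0.24 (adjusted p = 0.00318) with IFNα, the latter short of the fold limit. Against IFNα alone, Zfp428 and Zfp566 rose with CpG plus IFNα, at 2.93 ± 0.49 (adjusted p = 3.25e-06) and 1.78 ± 0.33 (adjusted p = 1.47e-05). Zfp428 measured 4.55, 2.14 and 1.76 CPM in the unstimulated samples, 5.04, 1.82 and 0 with IFNα, 20.9, 8.55 and 14.98 with CpG and 16.9, 13.8 and 17.99 with both, and all of its samples with CpG exceeded all samples without it. Zfp428, Zfp599, Zfp827, Zfp566, Zfp930 and Zfp593 held fewer than 120 counts over the 6 samples without CpG and reached the threshold through those with it, so their selection favoured a higher level with CpG.

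**Figure D3:**
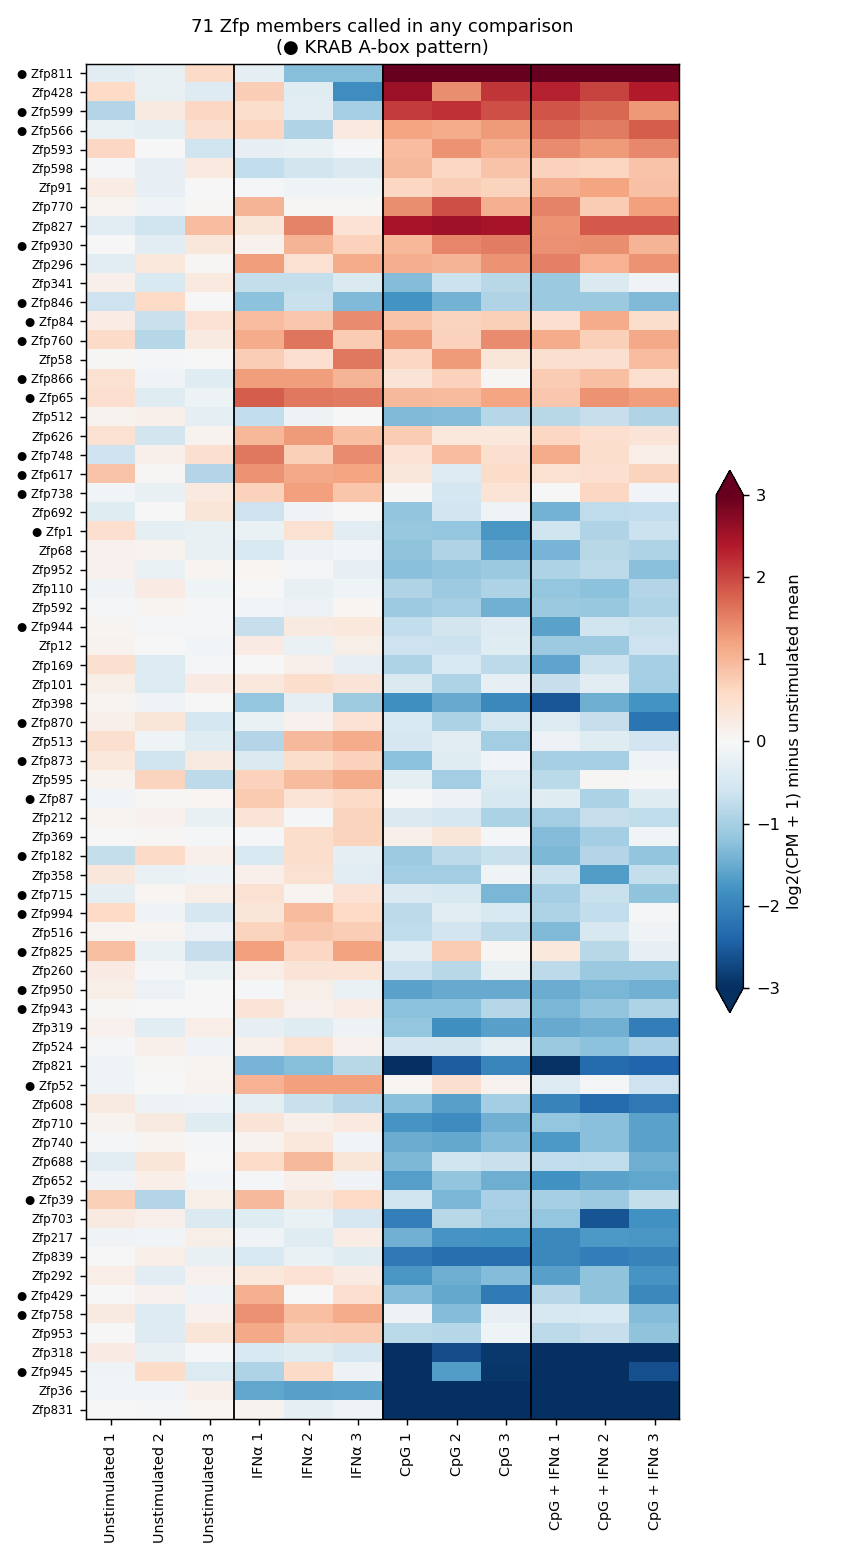
Log2(CPM + 1) minus the mean of the unstimulated samples (colour, limited to -3 and 3) for the 71 members called in any of the 6 comparisons (rows, ordered by the change between CpG plus IFNα and IFNα) in the 12 samples (columns); a dot marks the KRAB A-box pattern. The block of rows from Zfp84 to Zfp738 holds 9 of the 11 members raised by IFNα, red in the IFNα columns and paler in the columns with CpG.

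The members raised by IFNα were mostly KRAB zinc finger genes. The 11 were Zfp65, Zfp52, Zfp866, Zfp626, Zfp758, Zfp84, Zfp738, Zfp748, Zfp58, Zfp617 and Zfp760, and 9 of them carried the KRAB A-box pattern, all but Zfp626 and Zfp58. Within the 56 KRAB members 9 rose and 1 fell with IFNα (all genes: 4.56% and 4.07%), the median log2 fold change was 0.31 and 40 were above 0. Within the 112 C2H2 members without the pattern 2 rose and 1 fell, the median was 0.02 and 58 were above 0. By the wider KRAB pattern 9 of 70 rose, with a median of 0.31. For CpG plus IFNα against IFNα the KRAB members had 15 lower, 3 higher and a median of -0.53, where the 112 others had 25 lower, 4 higher and a median of -0.31. Of all genes, 25.5% were lower and 18.7% higher there, so the lower KRAB members are near the background share. The KRAB members had fewer counts (median total 239.5 against 392.5 for the 112 others), and members with totals under the median of all members gave 6 higher and 2 lower with IFNα against 5 and 1 for the rest. Whether KRAB members differ from the others was not tested. Without the IFNα samples, 148 of the 173 members would reach 120 counts, and 169 would reach 90, the same threshold scaled to 9 samples. Of the 11 raised by IFNα, Zfp758, Zfp748, Zfp58, Zfp617 and Zfp760 would fall under 120, and Zfp617 also under 90, so their selection favoured a higher level with IFNα.

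Zfp52 (chr17:21535539-21562601) measured 18.2, 19.3 and 21.2 CPM in the unstimulated samples, 41.4, 47.4 and 47.3 with IFNα, 20.3, 27.8 and 20.97 with CpG and 14.7, 18.6 and 12.3 with both. The IFNα samples lay above every sample of the other groups, and the log2 fold change was 1.22 ± 0.22 (adjusted p = 5.7e-05) against unstimulated and -1.55 ± 0.19 (adjusted p = 1.74e-08) when CpG was added. Zfp65 (chr13:67705309-67729173) measured 14.6, 7.49 and 8.82 CPM in the unstimulated samples, 37.3, 31.6 and 31.3 with IFNα, 20.3, 19.96 and 23.96 with CpG and 18, 26.9 and 25.2 with both. Its IFNα samples were again the highest. It rose with IFNα, at 1.66 ± 0.27 (adjusted p = 1.7e-05), and with CpG, at 1.05 ± 0.28 (adjusted p = 0.00155), the latter call being lost without unstimulated replicate 2 (0.91), unstimulated replicate 3 (0.91) or CpG replicate 3 (0.97). Zfp758 measured 12.7, 7.49 and 11.5 CPM in the unstimulated samples, 28.3, 20.1 and 23.7 with IFNα, 9.21, 3.56 and 8.49 with CpG and 7.09, 7.24 and 3.60 with both, with 1.13 ± 0.32 (adjusted p = 0.0113) for IFNα and -1.94 ± 0.31 (adjusted p = 1.43e-06) when CpG was added. Its IFNα samples did not overlap those of any other group, and without them it would be under the threshold of 120 counts.

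Zfp866 and Zfp626 gave 1.20 ± 0.28 (adjusted p = 0.00157) and 1.05 ± 0.26 (adjusted p = 0.00376) with IFNα. Zfp866 measured 16.4, 10.7 and 8.82 CPM in the unstimulated samples and 29.3, 29.2 and 24.4 with IFNα, and Zfp626 18.2, 8.56 and 14.1 and 27.2, 32.8 and 25.2. Both pairs of groups were apart, but the calls were near the fold limit. Zfp866 was at 0.97 without unstimulated replicate 3, Zfp626 at 0.83 without unstimulated replicate 2 and 0.92 without IFNα replicate 2, and Zfp758 at 0.96 without unstimulated replicate 2, each no longer called.

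Of the 11 members, 4 lay together on chromosome 13. Taking runs of at least 3 members with gaps of at most 200 kb, a rule set after the data were seen, Zfp595, Zfp953, Zfp429, Zfp58, Zfp87, Zfp748, Zfp738 and Zfp65 formed a cluster at chr13:67312998-67729173, all on the minus strand. All 8 had a log2 fold change above 0 with IFNα (median 0.97, 4 called) and all 8 were below 0 for CpG plus IFNα against IFNα (median -0.99, 4 called lower). Their summed level was 74.6, 74.9 and 73.2 CPM in unstimulated samples, 165.5, 131 and 152 with IFNα, 72.5, 71.3 and 72.4 with CpG and 70.9, 79.0 and 72.0 with both. The IFNα samples lay above all others, whose 9 values stayed within 70.9 and 79.0 CPM. Because the cluster was delimited after its values were seen, no test is given for it. Of all genes, 4.56% were called higher with IFNα and 25.5% lower for CpG plus IFNα against IFNα. Without the IFNα samples Zfp595, Zfp953, Zfp429, Zfp58 and Zfp748 would be under 120 counts, so the 8 of 8 and the sum rest partly on genes selected through the group where they are high. Exons of 7 of the 8, all but Zfp65, overlap an exon of another gene, on the same strand for Zfp595 and Zfp953 (both with Gm28044) and for Zfp58 and Zfp87 (both with Gm26965), so the counts and sums may include or lack reads of those genes. On chromosome 17, Zfp51, Zfp53, Zfp52 and Zfp760 formed a cluster with 4 of 4 above 0 with IFNα (median 0.83), and Zfp942, Zfp943, Zfp994, Zfp944 and Zfp758 another with 5 of 5 above 0 (median 0.30) and 4 of 5 called lower when CpG was added. Here too Zfp760 and Zfp758 would be under 120 counts without the IFNα samples. On chromosome 7, Zfp553, Zfp771, Zfp747, Zfp764, Zfp688 and Zfp689 had a median of 0.43 with IFNα and 6 of 6 above 0, with 0 called, while Zfp84, Zfp74, Zfp568, Zfp566, Zfp260 and Zfp146 had a median of -0.02 and 2 of 6 above 0, with 1 called higher. The other runs by this rule had medians with IFNα of 0.14 (chromosome 17), 0.33 (chromosome 18) and -0.06 (chromosome 6). Further runs had medians of 0.295, -0.12, -0.03 and 0.53 on chromosome 7, and -0.004 and -0.38 on chromosome 9. The run at -0.004 (Zfp560, Zfp26, Zfp426, Zfp266 and Zfp846) was all KRAB, with 2 of 5 above 0 and 1 called lower.

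**Figure D4:**
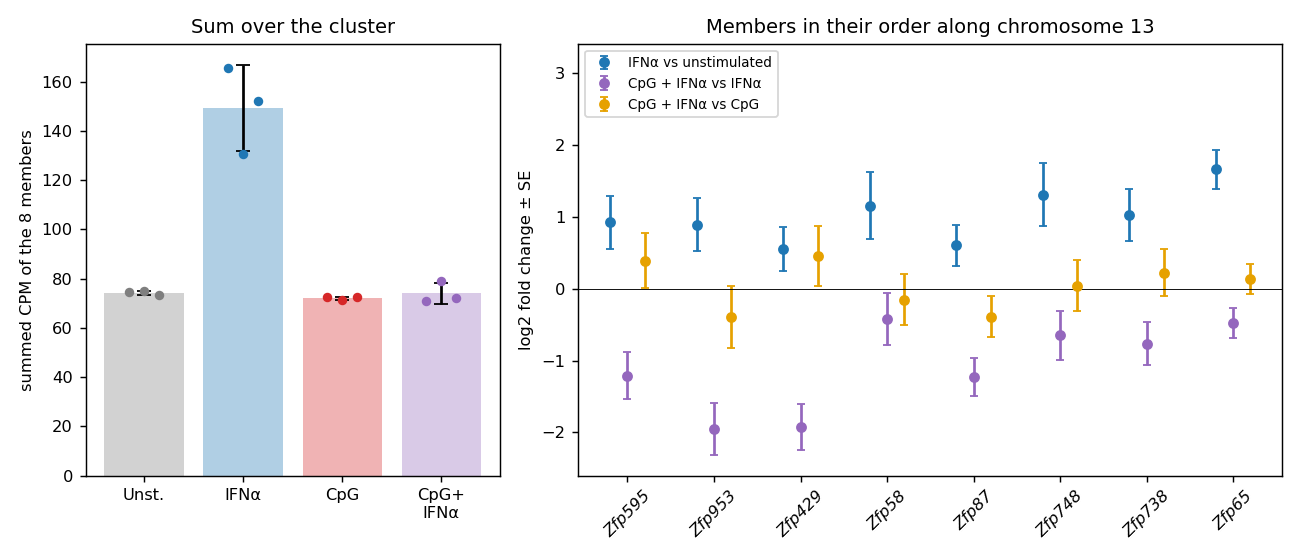
Left, summed normalised CPM of the 8 members of the chromosome 13 cluster (y axis) in each group (x axis), with points for samples and bars for the mean ± SD of 3 samples. Right, log2 fold change ± SE (y axis) of each member in its order along the chromosome (x axis) for 3 comparisons; the values for IFNα against unstimulated all lie above 0, those for CpG plus IFNα against IFNα all below 0, and those for CpG plus IFNα against CpG on both sides of 0.

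The promoters of this cluster were read from RefSeq (GRCm38.p6), where 143 of the 173 members and 7 of the 8 cluster members had an entry. Within the 250 bases before the transcription start, all 7 held the motif ACTACANNTCCC, read on both strands (reverse GGGANNTGTAGT). The 30 bases around each match are shown because these members of the cluster share them; capitals mark the motif and each sequence is written on the plus strand, which is opposite to the genes. The starts are those of RefSeq. By GENCODE M21, annotated exons cover 30 of the 30 bases for Zfp748, 23 for Zfp58, 4 for Zfp738 and 2 for Zfp429, and the windows of Zfp748 and Zfp738 lie inside the annotated span of their genes.
Zfp595, chr13:67332591-67332620: gtggtagggACTACATTTCCCacaagtcag
Zfp953, chr13:67360627-67360656: ggcatccggACTACATTTCCCacaaatcag
Zfp429, chr13:67399818-67399847: gcggtgcggACTACATCTCCCagaagtctg
Zfp58, chr13:67500533-67500562: agtggccagACTACAATTCCCacaagtctg
Zfp748, chr13:67553158-67553187: caacggaagACTACACTTCCCacaagtctg
Zfp738, chr13:67683548-67683577: agggacgggACTACACTTCCCacaagtcag
Zfp65, chr13:67729174-67729203: gttgggACTACATCTCCCacaaatcagtgt

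Clustered genes of this kind arise by duplication, so their promoters are not independent. The motif was searched for after these promoters were seen. It stood in 519 of 27025 genes with a promoter (1.92%), in 50 of 307 Zfp genes (16.3%) and in 21 of 143 members (14.7%). Its letters resemble a known binding motif of ZNF143, whose mouse gene Zfp143 is itself a member and measured 14.6, 24.6 and 24.7 CPM in the unstimulated samples, 29.3, 26.8 and 33.6 with IFNα, 17.8, 19.96 and 20.5 with CpG and 24, 21.05 and 27.2 with both, called in no comparison. A match of letters is a description and not a bound site.

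Other motifs were searched for as well. An interferon-stimulated response element core, GAAANNGAAA on either strand, stood in 3.46% of all genes and in 2 of the 143 members (1.4%), Zfp169 and Zfp994, neither of which was called with IFNα. A κB-like core, GGGANNTTCC, stood in 1.36% of all genes and in 3 members, Zfp617, Zfp84 and Zfp984. Zfp617 and Zfp84 were called higher with IFNα and Zfp984 was not. An E-box, CACGTG, stood in 6.86% of all genes and 12 members, and a cAMP response element, TGACGTCA, in 1.77% and 6 members. All 4 were read on both strands, and a base could count toward more than 1 of them.

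The effect of IFNα differed with and without CpG for 7 members. The 6 negative calls are 3.47% of the members, near the 3.17% of all genes, and the 1 positive call is 0.578%, against 3.09%. Besides Zfp36, the 6 others had a smaller or opposite IFNα effect in the presence of CpG. The difference of effects on the log2 scale was -1.76 ± 0.30 (adjusted p = 0.000138) for Zfp52, -1.52 ± 0.35 (adjusted p = 0.00363) for Zfp65 and -1.39 ± 0.49 (adjusted p = 0.0741) for Zfp758, whose IFNα effects in cells with CpG were -0.54 ± 0.21, 0.14 ± 0.21 and -0.26 ± 0.36. Zfp827 had -1.67 ± 0.54 (adjusted p = 0.0475), with IFNα effects of 0.85 ± 0.48 without CpG and -0.82 ± 0.25 with it. Zfp369 measured 13.7, 13.9 and 13.2 CPM in the unstimulated samples, 13.1, 20.1 and 22.1 with IFNα, 15.3, 17.8 and 12.98 with CpG and 4.91, 6.21 and 12.8 with both and had -1.42 ± 0.44 (adjusted p = 0.0366). Zfp626 had -1.01 ± 0.35 (adjusted p = 0.0671). These 3 calls and that of Zfp758 depended on single libraries: Zfp827 was lost without unstimulated replicate 1 (-1.41), unstimulated replicate 2 (-1.39) or IFNα replicate 2 (-1.06), and Zfp369 without CpG plus IFNα replicate 2 (-1.23). Zfp626 was lost without unstimulated replicate 2 (-0.80) or 3 (-0.95), IFNα replicate 2 (-0.88), CpG replicate 1 (-0.84), or CpG plus IFNα replicate 2 (-1.01) or 3 (-0.96). Zfp758 was lost without unstimulated replicate 2 (-1.22) or 3 (-1.37), IFNα replicate 1 (-1.28) or 3 (-1.40), CpG replicate 1 (-1.20) or 3 (-1.24), or CpG plus IFNα replicate 3 (-1.16). The count of 6 negative calls was 3 without unstimulated replicate 2 and 10 without IFNα replicate 2, and DESeq2 called 2. The count of 1 positive call was 2 without unstimulated replicate 2, IFNα replicate 1 or IFNα replicate 2.

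**Figure D5:**
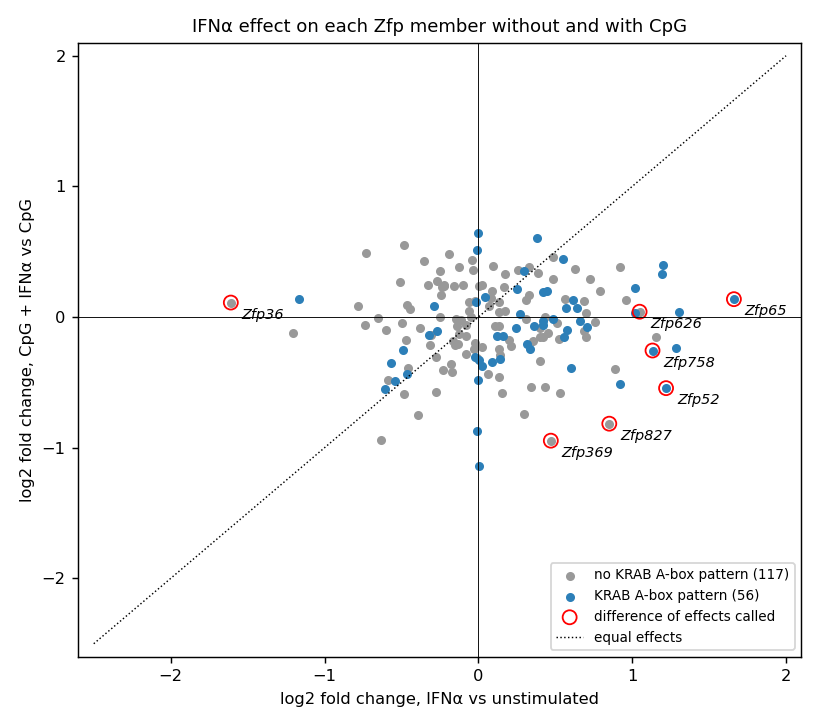
Log2 fold change of each member for IFNα against unstimulated (x axis) and for CpG plus IFNα against CpG (y axis), with the 56 KRAB-pattern members in blue, the others in grey and the 7 members whose effects differed circled in red; the dotted line marks equal effects, and the members with too few counts are not drawn. The circled points sit to the right of or below the dotted line except Zfp36, and the vertical spread is narrower than the horizontal one.

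Members listed for silencing of retroviral elements or imprints were mostly not called. Zfp809, which silences murine leukemia proviruses in embryonic cells, measured 17.3, 7.49 and 12.4 CPM in the unstimulated samples, 11.1, 22.5 and 22.1 with IFNα, 14.7, 17.8 and 17.97 with CpG and 18.5, 19.7 and 16.96 with both, and Zfp568, a repressor of an Igf2 transcript of the placenta, 10.9, 8.56 and 15.9 CPM in the unstimulated samples, 16.1, 5.47 and 9.92 with IFNα, 14.7, 14.97 and 20.97 with CpG and 13.1, 16.2 and 25.7 with both. The groups of both genes overlapped and neither was called in any comparison. Zfp932 and Zfp961 were not called either, while Zfp57, Zfp708 and Zfp999 of the same list were not among the members. Zfp952, also listed there, was lower with CpG, at -1.29 ± 0.30 (adjusted p = 0.000364), and with both agents, at -1.05 ± 0.28 (adjusted p = 0.00138), the latter call being lost without unstimulated replicate 1 (-0.97), unstimulated replicate 3 (-0.99) or CpG plus IFNα replicate 3 (-0.90).

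The shared machinery of KRAB repression is given beside its KRAB partners. Of 22 genes of this list tested, 7 rose and 3 fell with CpG (median 0.76), 9 rose and 2 fell with both agents (median 0.66), and 1 rose with IFNα (median 0.09). Of all genes, 20.1% rose and 25.5% fell with CpG, 20.3% and 25.6% with both, and 4.56% rose with IFNα. Trim28, the common corepressor of KRAB proteins, averaged 189.8 ± 29.1 CPM (SD, n = 3) in unstimulated samples, 181 ± 24.5 with IFNα, 477 ± 24.03 with CpG and 445 ± 43.1 with both, and its log2 fold change with CpG was 1.33 ± 0.12 (adjusted p = 3.36e-11). Setdb1, the methyltransferase, had 0.76 ± 0.20 (adjusted p = 0.00135), short of the fold limit. The genes of this list that fell with CpG were Atf7ip, at -1.91 ± 0.16 (adjusted p = 2.3e-12), Chd3, at -1.29 ± 0.18 (adjusted p = 1.32e-07), and Resf1, at -1.09 ± 0.14 (adjusted p = 1.67e-08). Daxx, a histone H3.3 chaperone and a known interferon-stimulated gene, was the member of that list raised by IFNα, at 3.11 ± 0.13 (adjusted p = 2.67e-19). Over the same comparison with CpG the 56 KRAB members gave 6 higher, 7 lower and a median of -0.11.

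Other zinc finger families, by the same threshold of 120 counts, gave counts of their own. The background was 20.1% of all genes higher and 25.5% lower with CpG, and 4.56% and 4.07% with IFNα, and several of the counts are near it. With CpG, 0 of 28 Zbtb genes rose and 9 fell (median -0.09), 0 of 11 Zkscan and Zscan genes rose and 4 fell (median -0.68), 3 of 16 Zc3h genes rose and 3 fell (median -0.06), and 0 of 13 Zfp genes with a letter suffix rose and 3 fell (median -0.30). Krüppel-like factors had 0 of 8 higher, 7 lower and a median of -2.99. With IFNα 5 of the 8 Krüppel-like factors fell (median -1.43), 2 of 28 Zbtb genes rose and 2 fell, 1 of 11 Zkscan and Zscan genes rose, 1 of 16 Zc3h genes fell, and 1 of 13 suffixed Zfp genes rose and 1 fell.

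Some members share sequence or position with other genes. At least 5% of the 50-base words in the last 500 transcript bases also occurred in another gene for 15 members, among them Zfp706 (38.9%, with Gm10193 and Gm44419), Zfp638 (26.4%) and Zfp932 (60.3%), and their counts are uncertain. Exons of 62 members overlapped an exon of another gene, 49 of them on the opposite strand; because the strand setting of the counting is not given, reads of the overlapping genes cannot be told apart. Among the members named above this held for Zfp36, Zfp91, Zfp740, Zfp296, Zfp608, Zfp52, Zfp866, Zfp593, Zfp827, Zfp566, Zfp428, Zfp703, Zfp617, Zfp143, Zfp106, Zfp346, Zfp384, Zfp410, Zfp961, Zfp870, Zfp706, Zfp943, Zfp74, Zfp984, Zfp553 and Zfp689, and for the 7 members of the chromosome 13 cluster other than Zfp65. The 100 members free of both gave 5 higher and 2 lower with IFNα, 6 higher and 14 lower with CpG, and 3 higher and 25 lower for CpG plus IFNα against IFNα. The background was 4.56% and 4.07%, 20.1% and 25.5%, and 18.7% and 25.5% of all genes, so the counts higher with IFNα and lower against IFNα are near it. The 32 KRAB members free of both gave 4 higher and 1 lower with IFNα, with a median of 0.12 and 20 above 0.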

How the data were processed

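The deposited file holds raw UMI counts per gene. Per the labels, the authors made it with UMI-tools 1.1.2, Trim Galore 0.6.7, HISAT2 2.2.1 on GRCm38 and featureCounts 2.0.1; the strand setting is not given in the sources used here. Counts were analysed in R 4.3.3 with edgeR 4.0.16 (filterByExpr, TMM factors, glmQLFit and glmQLFTest over all 12 samples in 1 fit, 6 comparisons), and DESeq2 1.42.0 was an alternative. CPM values use TMM-adjusted totals, and the errors of fold changes are standard errors (log2 fold change divided by the square root of F). The code was tested on simulated data. Count intervals cover counting error only; with 3 counts or fewer in each sample of a group the ratio is given with its interval. A gene, and a marker sum that includes it, are not reported here. The members and lists were chosen with earlier results of these data known. Members named in the text were up to 5 per direction and comparison with the smallest p among called members whose replicates did not overlap, the 5 highest totals, the genes next to the threshold, and a list of genes with known roles; cluster members and the other genes raised by IFNα were added after their values were seen. Alternatives were other scalings, filters, tests, fold limits, depths, a replicate block and each sample left out.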

Additional observations from a re-analysis of the deposited data

Results flagged for a closer look

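The effect of IFNα on 7 members differed between cells with and without CpG by a test of the difference itself (edgeR's quasi-likelihood interaction term). The difference on the log2 scale was 1.72 for Zfp36, -1.76 for Zfp52, -1.52 for Zfp65, -1.67 for Zfp827, -1.42 for Zfp369, -1.39 for Zfp758 and -1.01 for Zfp626. The 6 negative differences are 3.47% of the members against 3.17% of all genes, and the positive one 0.578% against 3.09%. Zfp758, Zfp827, Zfp369 and Zfp626 lost the call under DESeq2 and when certain single samples were left out. Zfp36 was at 9.21, 11.4 and 15.97 CPM with CpG and 12, 13.8 and 14.4 with both, so its IFNα effect with CpG was read from a level far below that of the samples without CpG. Groups of 3 samples were not searched for outlying values.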

How the results depend on the processing

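With library sizes alone in place of TMM factors, 6 members were higher with IFNα. The members' medians were then 0.01 (IFNα against unstimulated), -0.35 (CpG plus IFNα against IFNα) and -0.11 (difference of IFNα effects). The medians of all genes were -0.083, -0.019 and 0.021 in the same order, where TMM factors gave -0.001, -0.07 and -0.052. A filter at a total of 10 counts gave medians of 0.15 (IFNα), -0.087 (CpG), -0.066 (both), 0.006 (both against CpG, now above 0) and -0.30 (both against IFNα). DESeq2 called 7 higher with IFNα and 2 negative differences of IFNα effects. A fold limit of 2 on the log2 scale left 0 higher and 0 lower with IFNα, 4 and 6 with CpG, 2 and 8 with both, 3 and 4 for both against IFNα, and 0 and 0 for the difference, by construction fewer. Counts drawn down to 922450 per sample gave 4 lower for both against CpG, and medians of -0.25 (CpG), -0.34 (both), -0.48 (both against IFNα) and -0.12 (difference). Without ribosomal RNA and mitochondrial genes the last 2 medians were -0.35 and -0.11, and the shares of counts were 0.699, 0.637, 0.522 and 0.514% for unstimulated, IFNα, CpG and both. Apart from the fold limit, whose construction lowers counts, the cause was not tested.

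Leaving out 1 sample at a time gave these ranges. Members higher and lower numbered 6 to 11 and 2 to 5 with IFNα, 9 to 11 and 26 to 31 with CpG, 10 to 15 and 27 to 36 with both, 0 to 0 and 0 to 2 for both against CpG, 7 to 11 and 39 to 46 for both against IFNα, and 1 to 2 and 3 to 10 for the difference. The medians ran from 0.06 to 0.13, -0.26 to -0.12, -0.26 to -0.14, -0.063 to -0.003, -0.44 to -0.34 and -0.21 to -0.10 in the same order. The shares ran from 0.635 to 0.662%, 0.575 to 0.587%, 0.490 to 0.498% and 0.484 to 0.496% for unstimulated, IFNα, CpG and both. The 75 called values of named members were recomputed under each alternative that applied, which gave 1489 values. Of these 1489, 0 changed sign and 44 fell out of the call. The losses were most frequent for the difference of IFNα effects of Zfp626 (10 of 19 alternatives) and Zfp758 (8 of 19).

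The replicate numbers were not taken as pairs, since the labels give them no shared source and 5 of 18 same-number pairs, not all, had deviations correlated over 0.1 (range -0.07 to 0.21; other numbers -0.20 to 0.06). As a hint from the data that samples of a number may share a source, 10 of 12 samples correlated best with their own number, and Hbb-bs was ordered alike by number in all 4 groups. With the replicate number as a block, 10 members were higher and 3 lower with IFNα, 11 and 26 with CpG, 12 and 34 with both, and the other 3 comparisons kept their counts. Depth limits what could be seen: the median member had 348 counts over 12 samples, and the median 95% half-width of its log2 fold change ran from 0.48 to 0.72 over the 6 comparisons.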
